A study of Mus musculus with 90 samples.

Results

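The comparison described here set the tibialis anterior (TA) muscle of Piezo1 mutant mice against that of WT mice 1 day after injury. It covers 8 of the 90 libraries of the series, chosen by their labels: 4 labelled KO and 4 labelled WT. The KO mice carried Pdgfra-Cre and floxed Piezo1 alleles (Piezo1f/f), and the WT mice carried the same Pdgfra-Cre with intact alleles (Piezo1+/+), so both groups carried the recombinase. Both groups received cardiotoxin (CTX), a snake venom toxin that kills muscle fibres, by injection into the muscle, and the whole TA was taken 1 day later. RNA was made from snap-frozen tissue with TRIzol, and libraries from poly(A) RNA were built from 2 ng of it. Age is not given for these mice in the sources used here, and nothing says whether the 4 libraries of a group came from separate mice or whether the groups were littermates, so p-values measure the spread between libraries.

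Piezo1 is a cation channel that opens when the cell membrane is stretched, and the calcium that enters starts signalling inside the cell. The Cre in these mice is driven by Pdgfra, a receptor gene that marks the mesenchymal stromal cells lying between muscle fibres. After CTX, fibres die, neutrophils and then monocytes enter, stromal cells release chemokines and matrix, and satellite cells, the stem cells of muscle, later divide and fuse to rebuild the fibres. A whole TA holds all of these cells, so a change limited to stromal cells is diluted, and fewer cells of a type cannot be told apart from less RNA per cell.

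Total counts ran from 6513479 to 6950626 in KO and from 7160993 to 7754027 in WT. Gene levels are in CPM, that is, counts per library brought to 1 common size, after TMM scaling of the library totals, which removes differences in depth but not in gene length. The tissue label held: 30 genes of mature fibres summed to 140610 to 234800 CPM in KO and 146030 to 187350 CPM in WT. Every library had reads from 4 Y-linked genes and at most 4 reads of Xist. The first principal component of the 8 libraries took 22.6% of the variance, with KO libraries 3 and 4 at its low end and WT libraries 1 and 2 at its high end. Fold changes are KO over WT and come from edgeR's quasi-likelihood test fitted on all 20 TA libraries of days 1, 3 and 7, and a gene was called when its p, adjusted over 15499 genes by Benjamini-Hochberg, was under 0.05.

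Piezo1 itself (chr8:122481698-122551329, mm10) stood at 46.6, 42.4, 30.9 and 43.1 CPM in the 4 KO libraries, against 53.9, 46.2, 46.6 and 39.1 CPM in the 4 WT libraries. The groups overlapped, with means of 40.8 ± 6.82 CPM in KO and 46.4 ± 6.05 CPM in WT (SD, n = 4 each), and the gene was not called (log2 fold change -0.19 ± 0.18 (SE), adjusted p = 0.94). A count over the whole gene in whole muscle does not check the deletion, because cells without the Cre keep the gene and a transcript without the floxed exons can still be counted. In MmSCs, muscle mesenchymal stromal cells sorted as PDGFRa+ Sca1+ CD31- CD45- from hindlimb muscle 1 day after CTX, Piezo1 had 54.7, 54.5 and 52.0 CPM in the 3 FL libraries, against 59.1, 68.8 and 68.0 CPM in the 3 WT libraries, with no overlap and no call (log2 -0.28, adjusted p = 0.19). No gene within 10 Mb of Piezo1 was called at day 1, out of 128 tested there, and 8 of them (6.25%) had an unadjusted p under 0.05.

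At day 1, 12 genes fell in KO muscle and none rose. That is 0.0774% of the 15499 genes tested for the lower direction and 0% for the higher one. At an unadjusted p under 0.05 there were 408 genes on the higher side (2.63%) and 485 on the lower side (3.13%), and DESeq2, a second count test, called 11 higher and 31 lower genes, all 12 among them. The median fold change over all genes was -0.00032 on the log2 scale. In 12 of 12 called genes, every KO library lay below every WT library. The calls were made on these same libraries, so this separation was largely set in advance. Over all genes tested, every KO library lay below every WT library for 356 (2.3%) and above every WT library for 284 (1.83%). The calls turned on single libraries: the count was 6, 7, 6 or 6 without KO library 1, 2, 3 or 4, and 5, 8, 16 or 18 without WT library 1, 2, 3 or 4. Tmem87a, Slc28a2b, Pcna-ps2, Hist1h2al and Cldn2 were called each of these 8 times, and the other 7 genes lost the call at least once.

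**Figure D1:**
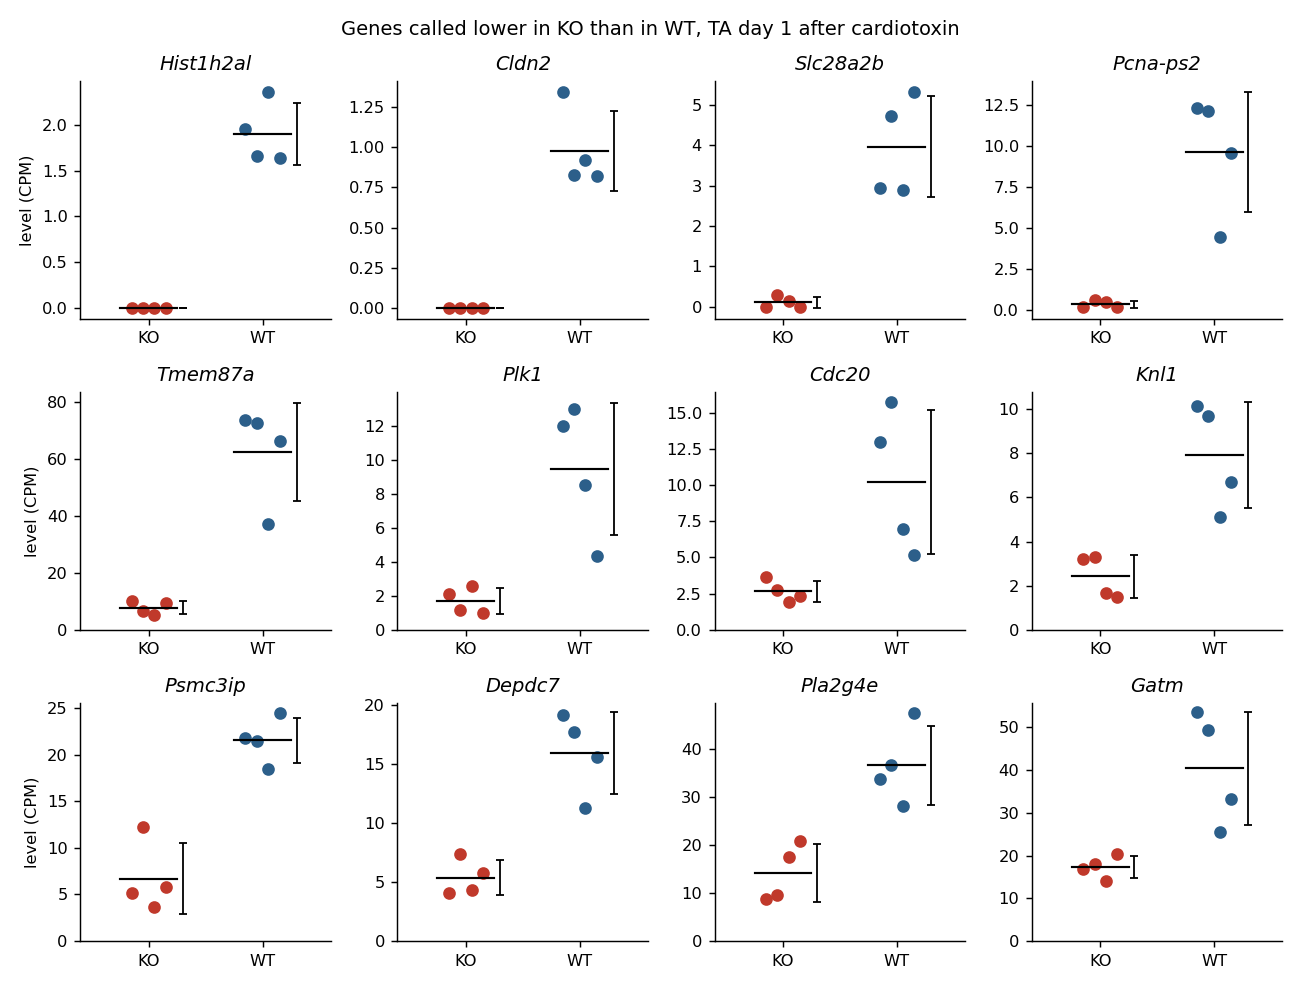
Level in CPM (linear axes) of each of the 12 genes called lower in KO TA muscle at day 1, with 1 point per library, KO on the left and WT on the right of each panel; lines are means and bars are SD (n = 4 each). In every panel all 4 KO points lie below all 4 WT points, and in Tmem87a and Pcna-ps2 WT library 3 is the lowest WT point.

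Of the 12 genes, 6 (50%) lie on chromosome 2, which holds 7.52% of the genes tested, and 5 of these 6 lie within a few megabases of each other. Tmem87a (chr2:120355312-120404113), which encodes a Golgi membrane protein known in human melanoma cells as Elkin1 for its part in mechanically activated currents, had 9.94, 6.62, 5.10 and 9.37 CPM in the 4 KO libraries, against 73.8, 72.8, 37.1 and 66.4 CPM in the 4 WT libraries. It averaged 7.76 ± 2.29 CPM in KO and 62.5 ± 17.3 CPM in WT (SD, n = 4 each), an 8.05-fold lower level (log2 fold change -3.01 ± 0.30 (SE), adjusted p = 1.1e-05). The KO libraries were all low and close together, and among the WT libraries the third was clearly below the other three. Slc28a2b (chr2:122484941-122528040 in RefSeq), a close copy of the nucleoside transporter gene Slc28a2, had 0, 2, 1 and 0 reads in KO libraries, against 24, 40, 22 and 39 reads in WT libraries. Pooled over libraries that is 35.4-fold lower, with a 95% interval of 11.8 to 174 that covers counting error only (adjusted p = 1.7e-05). Because the copies are alike, the split of reads between them is uncertain, and Slc28a2 itself averaged 19.8 CPM in KO and 19.5 CPM in WT (log2 0.02, adjusted p = 0.997).

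Pla2g4e (chr2:120166412-120245335), a phospholipase family enzyme that makes precursors of N-acylethanolamines, had 8.82, 9.49, 17.4 and 20.9 CPM in the 4 KO libraries, against 33.7, 36.7, 28.2 and 47.5 CPM in the 4 WT libraries. It fell 2.60-fold (log2 fold change -1.38 ± 0.26 (SE), adjusted p = 0.044), and KO libraries 3 and 4 came nearest to the WT range. Gatm (chr2:122594467-122611303), the enzyme of the first step of creatine synthesis, had 16.8, 18.1, 14.0 and 20.4 CPM in the 4 KO libraries, against 53.5, 49.4, 25.4 and 33.3 CPM in the 4 WT libraries. The KO values were tight and the WT values spread more widely, with a 2.34-fold difference between the groups (log2 fold change -1.23 ± 0.22 (SE), adjusted p = 0.025). Knl1 (chr2:119047119-119105501), a scaffold of the kinetochore on which the spindle checkpoint assembles, had 3.22, 3.31, 1.65 and 1.48 CPM in the 4 KO libraries, against 10.1, 9.69, 5.11 and 6.69 CPM in the 4 WT libraries. Its level was 3.24-fold lower (log2 fold change -1.69 ± 0.28 (SE), adjusted p = 0.0093). Depdc7 (chr2:104721784-104742878), 15.6 Mb before Tmem87a and so the farthest of the 6, had 4.06, 7.33, 4.35 and 5.76 CPM in the 4 KO libraries, against 19.2, 17.7, 11.3 and 15.6 CPM in the 4 WT libraries. It was 2.96-fold lower (log2 fold change -1.57 ± 0.31 (SE), adjusted p = 0.044) and kept its call in 1 of the 8 leave-outs.

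Genes of the same stretch that were not called also stood apart in both directions, and the window counts that follow include the called genes. Between 110 and 120 Mb of chromosome 2, 16 of 64 genes (25%) had an unadjusted p under 0.05, 1 of them called. Of the 16, 9 were on the higher side and 7 on the lower. The 25% was the largest share among 234 windows of 10 Mb with at least 20 genes. Between 120 and 130 Mb the count was 19 of 109 genes (17.4%), 4 of them called, at rank 6 of the 234 windows. Windows of chromosomes 1, 3 and 8 ranked between them, and the share over all genes tested was 5.76%. Inafm2 had 21.3, 21.7, 27.3 and 25.2 CPM in the 4 KO libraries, against 3.06, 3.19, 10.5 and 2.87 CPM in the 4 WT libraries (log2 2.28, adjusted p = 0.076). Eif3j1, a subunit of a translation initiation factor, had 14.4, 14.4, 21.8 and 17.6 CPM in the 4 KO libraries, against 2.69, 2.95, 9.83 and 3.14 CPM in the 4 WT libraries (log2 1.87, adjusted p = 0.083). In both, WT library 3 stood between the other WT libraries and the KO libraries, the same library that was lowest among the WT in Tmem87a. Eif3j1 has a close copy, Eif3j2, on another chromosome, which averaged 1.19 CPM in KO and 3.72 CPM in WT, so reads may be split between them. Chp1, a calcium-binding partner of sodium-proton exchangers, had 133, 121, 131 and 142 CPM in the 4 KO libraries, against 86.9, 80.4, 104 and 93.0 CPM in the 4 WT libraries (log2 0.53, adjusted p = 0.12). Mga, a partner of the Myc-network protein Max, had 37.4, 42.6, 37.98 and 42.4 CPM in the 4 KO libraries, against 21.9, 28.1, 25.8 and 27.7 CPM in the 4 WT libraries (log2 0.63, adjusted p = 0.12). Spint1, a membrane protease inhibitor, had 3.78, 1.15, 0.450 and 2.47 CPM in the KO libraries and no read in any WT library, without a call (adjusted p = 0.30). DESeq2 called Inafm2 and Eif3j1 higher (adjusted p = 0.0034 and 0.010), and also Chp1 and Mga (adjusted p = 0.012 and 0.022). Inafm2 and Eif3j1 were also called with no filter, with the 8 day 1 libraries alone (adjusted p = 0.0096 and 0.042) and without WT library 3 (adjusted p = 0.0051 and 0.0037). These genes were picked after their values were seen. In the day 1 TA libraries the Piezo1 genotype and any other difference between the mice of both groups cannot be told apart. In uninjured heart, Tmem87a stood as low in 1 WT library (18.1 CPM) as in 2 FL libraries (17.0 and 18.1 CPM).

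**Figure D2:**
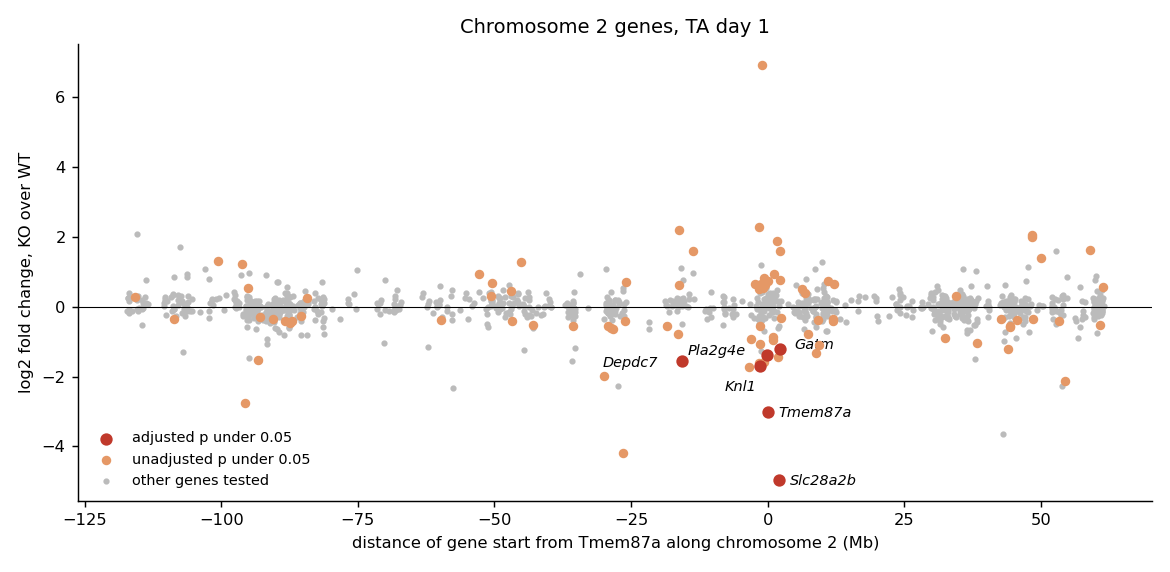
Log2 fold change (KO over WT, TA day 1) of every tested gene of chromosome 2 against the distance of its start from the start of Tmem87a in Mb; red points were called, orange points had an unadjusted p under 0.05, grey points are the rest. Called and orange points of both signs crowd around Tmem87a, with Slc28a2b at -4.96 as the lowest; the orange point near 7 is Spint1, with no WT read, whose fitted value depends on the prior count.

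The other 6 called genes lie on 6 other chromosomes. Hist1h2al (chr13:51202727-51203065), annotated as a processed pseudogene of the H2A histones, had no read in any KO library, against 16, 14, 18 and 12 reads in WT libraries. Taking the limit that a count of 0 allows as 3 reads over the group, the pooled WT level was 17.0-fold above that limit. With counting error in both groups, the lower 95% limit of the fold was 13.4 (adjusted p = 4.1e-04 in edgeR). Cldn2 (chrX:139800828-139811386), a tight-junction protein that forms pores for cations, likewise had no KO read, against 11, 7, 7 and 6 reads in WT libraries (adjusted p = 0.0036). Its pooled WT level was 8.78-fold above the same limit, and the lower 95% limit of its fold was 6.72. Both genes were near the detection limit in WT as well. Pcna-ps2 (chr19:9283380-9284160), a processed pseudogene of Pcna, had 1, 4, 3 and 1 reads in KO libraries, against 101, 103, 34 and 70 reads in WT libraries (log2 fold change -4.78 ± 0.44 (SE), adjusted p = 1.3e-06). Pcna, the DNA polymerase clamp, did not show this difference, at 41.7 ± 7.92 CPM in KO and 36.4 ± 2.90 CPM in WT (SD, n = 4 each). Histone and pseudogene sequences resemble other genes closely, so these counts are uncertain. Psmc3ip (chr11:101091823-101095436), which helps recombinases pair homologous DNA, had 5.18, 12.2, 3.60 and 5.76 CPM in the 4 KO libraries, against 21.8, 21.5, 18.5 and 24.5 CPM in the 4 WT libraries. It was 3.21-fold lower (log2 fold change -1.68 ± 0.31 (SE), adjusted p = 0.028), with KO library 2 the highest of its group. Hist1h2al, Cldn2, Slc28a2b, Pcna-ps2 and Knl1 fall under the level that the rule for naming genes sets and are named because the calls are few.

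Plk1 and Cdc20, both drivers of mitosis, were the 2 called members of a list of 22 cell cycle genes. Plk1 (chr7:122159439-122169873), a kinase that acts at mitotic entry and in spindle assembly, had 2.10, 1.15, 2.55 and 0.987 CPM in the 4 KO libraries, against 11.98, 12.998, 8.52 and 4.37 CPM in the 4 WT libraries. It was 5.53-fold lower (log2 fold change -2.47 ± 0.41 (SE), adjusted p = 0.0094), and WT library 4 was the nearest to KO. Cdc20 (chr4:118432901-118437352), which activates the ubiquitin ligase that ends metaphase, had 3.64, 2.73, 1.95 and 2.30 CPM in the 4 KO libraries, against 12.96, 15.7, 6.95 and 5.19 CPM in the 4 WT libraries. It was 3.83-fold lower (log2 fold change -1.94 ± 0.37 (SE), adjusted p = 0.044). Both lost the call without KO library 1, 2 or 4 and without WT library 1, and Cdc20 also without KO library 3 or WT library 2. The number of members called, all lower, was 7 in DESeq2, 10 with no filter on low counts and 6 without WT library 4. DESeq2 added Aurkb, Birc5, Ccnb1, Mki67 and Top2a. None was called without KO library 1, 2 or 4 or WT library 1, and 1, Plk1, without KO library 3 or WT library 2.

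Over the list, none rose and 2 fell, 20 were not called, and 19 of 22 fold changes were below 0, with a median of -0.69 against -0.00032 over all genes. On the lower side, 13 members had an unadjusted p under 0.05 (3.13% of all genes did), and 5 had every KO library below every WT library (2.3% of all genes). Aurkb, a kinase that corrects chromosome attachment, had 11.1, 7.77, 5.85 and 7.40 CPM in the 4 KO libraries, against 19.6, 25.2, 15.6 and 13.5 CPM in the 4 WT libraries (log2 -1.20, adjusted p = 0.077). Mki67, the antigen of dividing cells, had 14.3, 16.5, 15.01 and 12.2 CPM in the 4 KO libraries, against 33.6, 35.4, 22.9 and 16.0 CPM in the 4 WT libraries (log2 -0.90, adjusted p = 0.16), with WT library 4 inside the KO range. Genes that act in DNA replication lay closer to 0: Mcm2, of the replicative helicase, had 0.01 and Mcm6 had -0.23 on the log2 scale, and Pcna was at 0.20. The summed level of the 22 genes was 629, 529, 493 and 407 CPM in KO, against 773, 817, 617 and 552 CPM in WT, so KO library 1 overlapped the WT range. Knstrn and Nusap1, spindle genes of the chromosome 2 stretch that are not in the list, had log2 -1.62 (adjusted p = 0.077) and -1.58 (adjusted p = 0.23).

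**Figure D3:**
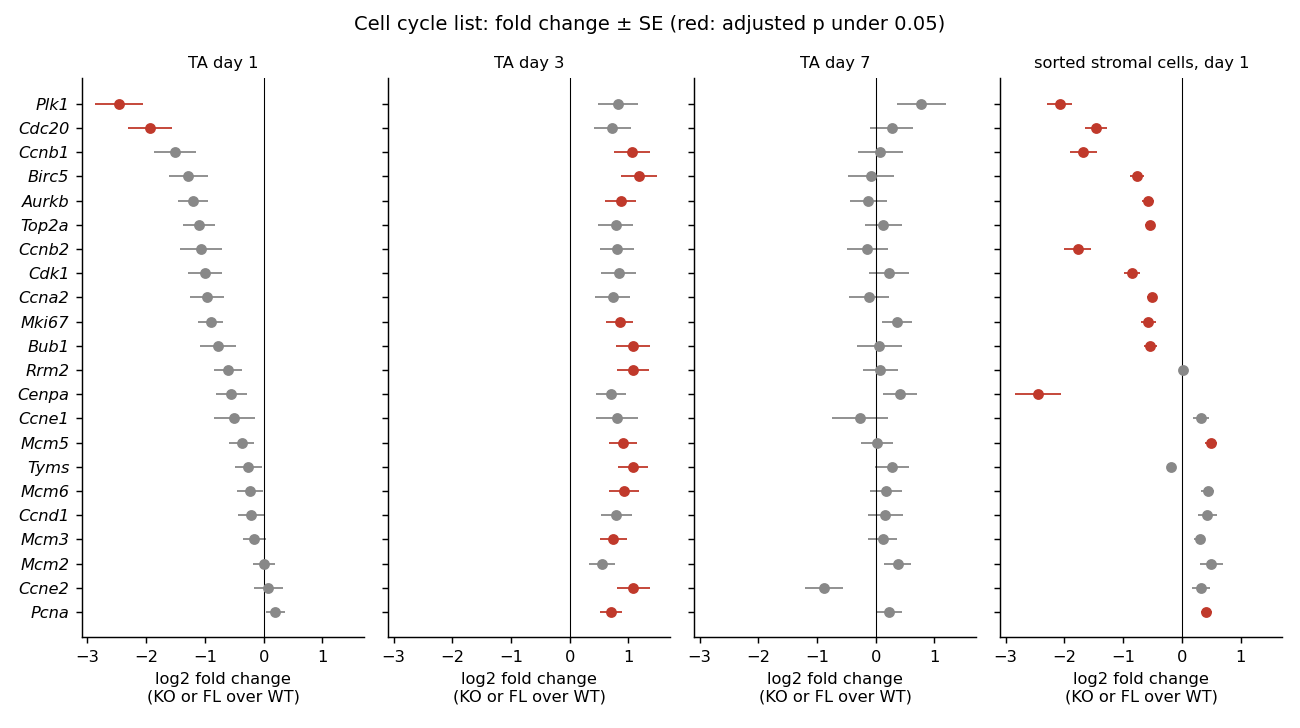
Log2 fold change ± SE of the 22 cell cycle genes in TA muscle at days 1, 3 and 7 (KO over WT) and in MmSCs sorted 1 day after CTX (FL over WT), with genes ordered by the day 1 value and red points marking an adjusted p under 0.05. At day 1, 19 points lie below 0; at day 3 all 22 lie above 0 and 12 are called; in MmSCs 12 are called lower and 2 higher.

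Promoters of many mitotic genes carry a CHR element (TTTGAA), bound by the MuvB complexes that keep these genes off in resting cells, often beside CCAAT boxes bound by NF-Y. The 300 bases from 250 before to 50 after the start of 4 called genes are printed because 3 act in mitosis and hold TTTGAA, and the fourth, Tmem87a, has the highest WT level of the 12 and holds neither motif. They are RefSeq sequences of GRCm38.p6, 5′ to 3′ on the gene's strand, with TTTGAA and CCAAT in capitals on either strand (TTCAAA and ATTGG in reverse): Plk1 (chr7:122159185-122159484, plus strand), Cdc20 (chr4:118437294-118437593, minus strand), Knl1 (chr2:119046869-119047168, plus strand) and Tmem87a (chr2:120404067-120404366, minus strand).
Plk1: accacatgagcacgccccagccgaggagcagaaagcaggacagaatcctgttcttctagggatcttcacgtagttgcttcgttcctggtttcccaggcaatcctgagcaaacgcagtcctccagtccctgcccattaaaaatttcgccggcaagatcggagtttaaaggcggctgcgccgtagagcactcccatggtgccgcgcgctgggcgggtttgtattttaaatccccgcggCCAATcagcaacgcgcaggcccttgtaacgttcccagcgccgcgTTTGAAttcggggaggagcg
Cdc20: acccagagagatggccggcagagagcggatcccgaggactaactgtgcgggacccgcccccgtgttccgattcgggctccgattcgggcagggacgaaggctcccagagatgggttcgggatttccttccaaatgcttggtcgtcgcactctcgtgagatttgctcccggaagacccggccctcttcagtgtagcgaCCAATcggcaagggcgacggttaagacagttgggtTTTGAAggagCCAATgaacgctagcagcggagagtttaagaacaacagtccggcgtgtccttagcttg
Knl1: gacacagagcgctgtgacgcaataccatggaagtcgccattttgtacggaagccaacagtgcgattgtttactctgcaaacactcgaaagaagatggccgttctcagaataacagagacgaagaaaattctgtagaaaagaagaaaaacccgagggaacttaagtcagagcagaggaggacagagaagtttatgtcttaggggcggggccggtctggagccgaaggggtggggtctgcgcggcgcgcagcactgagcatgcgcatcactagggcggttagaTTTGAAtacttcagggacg
Tmem87a: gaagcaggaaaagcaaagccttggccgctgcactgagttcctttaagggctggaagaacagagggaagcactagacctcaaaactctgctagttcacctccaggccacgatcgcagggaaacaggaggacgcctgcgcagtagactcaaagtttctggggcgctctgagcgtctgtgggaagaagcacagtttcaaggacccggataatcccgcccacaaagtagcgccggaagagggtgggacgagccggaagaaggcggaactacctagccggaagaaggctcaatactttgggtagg
Counting the first transcribed base as 1, TTTGAA began at 31 in Plk1, at -18 in Cdc20 and at 32 in Knl1. CCAAT began at -14 in Plk1 and at -53 and -8 in Cdc20. Of the 12 called genes 10 had a promoter in the table, and 3 of these 10 (30%) held TTTGAA, against 5878 of all 32851 promoters (17.9%). Both motifs stood together in 2 of the 10 (20%), against 6.95% of all promoters. Of the 18 promoters found for the cell cycle list, 8 (44.4%) held TTTGAA and 15 (83.3%) held CCAAT, against 37.4% of all promoters for CCAAT. A match of these letters is a description and does not show binding.

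The day 1 pattern was set beside the same genotype contrast on later days. In TA muscle 405 genes rose (2.61%) and 987 fell (6.37%) at day 3, and 0 rose and 0 fell (0% each) at day 7, where edgeR gave 737 genes at an unadjusted p under 0.05 and DESeq2 also called 0. Tmem87a had 52.7, 82.1 and 64.2 CPM in KO, against 68.3, 68.8 and 63.0 CPM in WT at day 3 (log2 0.00, adjusted p = 0.997). At day 7 it had 84.0, 107 and 97.6 CPM in KO, against 106, 37.0 and 98.6 CPM in WT, with WT library 2 well below the rest. Pla2g4e was called lower at day 3 as well, with 7.94, 12.5 and 7.96 CPM in KO, against 26.1, 20.9 and 38.2 CPM in WT (log2 -1.56, adjusted p = 0.0024). Cldn2 was also called lower at day 3, with 1.55, 1.54 and 2.62 CPM in KO, against 4.94, 4.53 and 6.41 CPM in WT (log2 -1.45, adjusted p = 0.016), whereas Pcna-ps2 and Knl1 were called higher there (log2 1.03, adjusted p = 0.049, and log2 0.86, adjusted p = 0.042).

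The difference itself, the KO effect at day 1 minus that at day 3, was tested in the same fit. It was called for 906 genes, 711 higher (4.59%) and 195 lower (1.26%), among them 11 of the 12, with Pla2g4e at 0.18 (adjusted p = 0.86). The count was 568 without KO library 4 and 584 without WT library 2. Against day 7 the difference was called for 6 genes, 0 higher (0%) and 6 lower (0.0387%), and all 6 are among the 12: Hist1h2al, Cldn2, Slc28a2b, Pcna-ps2, Tmem87a and Plk1. The 12 were chosen by their day 1 difference, which both of these contrasts contain, so their share among the calls was largely set in advance. Each day has its own libraries, so a difference between days cannot be told apart from one between mice. For Tmem87a the difference was -3.01 against day 3 and -3.27 against day 7 (log2, adjusted p = 3.7e-04 and 6.1e-04). Plk1 and Cdc20 differed by -3.29 and -2.66 from day 3 (adjusted p = 8.9e-04 and 0.0022). The median of the cell cycle list was -0.69 at day 1, 0.83 at day 3, where 12 members rose and 0 fell, and 0.12 at day 7, where 0 were called. By fitted size, the leading 6 of the 906 were Ush1g, Cdh4, Sall4, Gm12199, Hist1h2al and Gm13483. Other than Cdh4, they had under 5 CPM in every day 1 library, so their fitted sizes and this order depend on the prior count and are not given as folds. At day 1 Cdh4 had 11.6, 7.33, 6.90 and 8.55 CPM in the 4 KO libraries, against 0.611, 2.84, 4.85 and 2.87 CPM in the 4 WT libraries (log2 1.62, adjusted p = 0.63). Cdh4 encodes a cadherin, a cell adhesion protein.

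MmSCs sorted from hindlimb muscle on day 1 after CTX gave a separate set of libraries of the same genotypes and day, 3 labelled FL and 3 WT, although whether mice were shared with the TA set is not stated. There 57 genes rose (0.44%) and 175 fell (1.35%) out of 12957. Tmem87a had 2.33, 3.49 and 4.45 CPM in FL, against 61.6, 64.7 and 37.3 CPM in WT (log2 -4.00, adjusted p = 5.2e-05). Pcna-ps2 had 1.31, 1.06 and 1.44 CPM in FL, against 43.9, 39.6 and 26.1 CPM in WT (log2 -4.84, adjusted p = 1.2e-07). In both, as in the TA, WT library 3 was the lowest WT library. Plk1, Cdc20 and Knl1 were also called lower in MmSCs (log2 -2.08, adjusted p = 2.8e-04, then log2 -1.47, adjusted p = 0.0032, and log2 -1.21, adjusted p = 0.02). Eif3j1 was called higher there, with 7.89, 8.71 and 11.1 CPM in FL, against 2.38, 3.92 and 4.39 CPM in WT (log2 1.37, adjusted p = 0.018). Inafm2 was not called, at 25.2, 21.8 and 21.6 CPM in FL, against 2.98, 3.32 and 12.96 CPM in WT (adjusted p = 0.19). Psmc3ip, in contrast, had 19.3, 17.8 and 15.7 CPM in FL, against 16.8, 17.9 and 18.3 CPM in WT (log2 0.00, adjusted p = 0.99). Depdc7 was not called either, at 4.55, 6.97 and 4.22 CPM in FL, against 9.34, 12.1 and 6.64 CPM in WT (log2 -0.83, adjusted p = 0.17). Hist1h2al, Cldn2, Slc28a2b, Pla2g4e and Gatm had too few reads in MmSCs to be tested. Of 145 genes tested between 110 and 130 Mb of chromosome 2, 4 rose and 14 fell in MmSCs, which is 12.4% against 1.79% of all genes tested there. In the TA at day 1 none of 173 rose in this stretch and 5 fell, 2.89% against 0.0774% of all genes. In the TA at day 3, 8 rose and 6 fell, 8.09% against 8.98% of all genes, so the stretch did not stand above the background.

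Uninjured tissues of the same genotypes, from cohorts other than the injured mice, did not show these differences as calls. In quadriceps, liver and uninjured heart 0 genes rose and 0 fell (0% each), with 771, 525 and 778 genes at an unadjusted p under 0.05 in edgeR and 0, 21 and 9 calls in DESeq2. Heart 3 days after CTX to the limb had 292 genes higher (1.58%) and 430 lower (2.33%). Tmem87a had 33.4, 71.2 and 79.2 CPM in FL, against 68.1, 74.1 and 71.1 CPM in WT in quadriceps, where FL library 1 alone was low. In liver it had 7.70, 6.68, 5.604 and 9.82 CPM in FL, against 10.4, 9.80, 8.60 and 5.98 CPM in WT, and in heart at day 3 13.5, 37.0 and 31.2 CPM in FL, against 15.6, 31.6 and 34.1 CPM in WT. The groups overlapped in each. Levels were scaled within each tissue and are not compared between tissues.

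The differences around Tmem87a also appeared between libraries of 1 genotype in other tissues. In uninjured heart, Tmem87a had 17.0, 18.1 and 31.5 CPM in FL, against 34.5, 31.9 and 18.1 CPM in WT, and Inafm2 had 29.9, 34.6 and 6.30 CPM in FL, against 5.94, 6.79 and 30.1 CPM in WT. Eif3j1 had 4.93, 6.63 and 1.83 CPM in FL, against 1.99, 2.05 and 6.47 CPM in WT, and the pseudogene Pcna-ps2 had 1.03, 1.81 and 2.68 CPM in FL, against 2.52, 2.58 and 0.912 CPM in WT. These are libraries 2, 3 and 4 of each genotype by their labels. FL libraries 2 and 3 and WT library 4 were thus the 3 with low Tmem87a and high Inafm2 and Eif3j1, while FL library 4 was like WT libraries 2 and 3. In liver, Tmem87a was highest in FL library 4 among FL and lowest in WT library 4 among WT, and Inafm2 ran the other way, at 16.1, 10.2, 8.47 and 2.84 CPM in FL, against 5.07, 4.15, 2.30 and 11.1 CPM in WT. Library 4 of each genotype was thus the exception in both tissues. Uninjured heart and liver share their labels and numbers, and whether same-numbered libraries came from the same mice is not stated, so they are not counted as separate observations. In heart at day 3 after CTX, where the libraries are FL 1, 2 and 3 and WT 2, 3 and 4, FL library 1 and WT library 2 had the lowest Tmem87a and the highest Inafm2, which stood at 48.8, 7.96 and 8.71 CPM in FL, against 27.4, 6.17 and 4.32 CPM in WT. In TA at day 7, WT library 2 had the lowest Tmem87a and the highest Inafm2 (2.96, 2.75 and 0.588 CPM in KO, against 2.72, 9.98 and 1.07 CPM in WT). In uninjured heart, liver and heart at day 3, low Tmem87a with high Inafm2 stood in libraries of both genotype labels. These genes and libraries were compared after their values were seen, and no test was made.

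**Figure D4:**
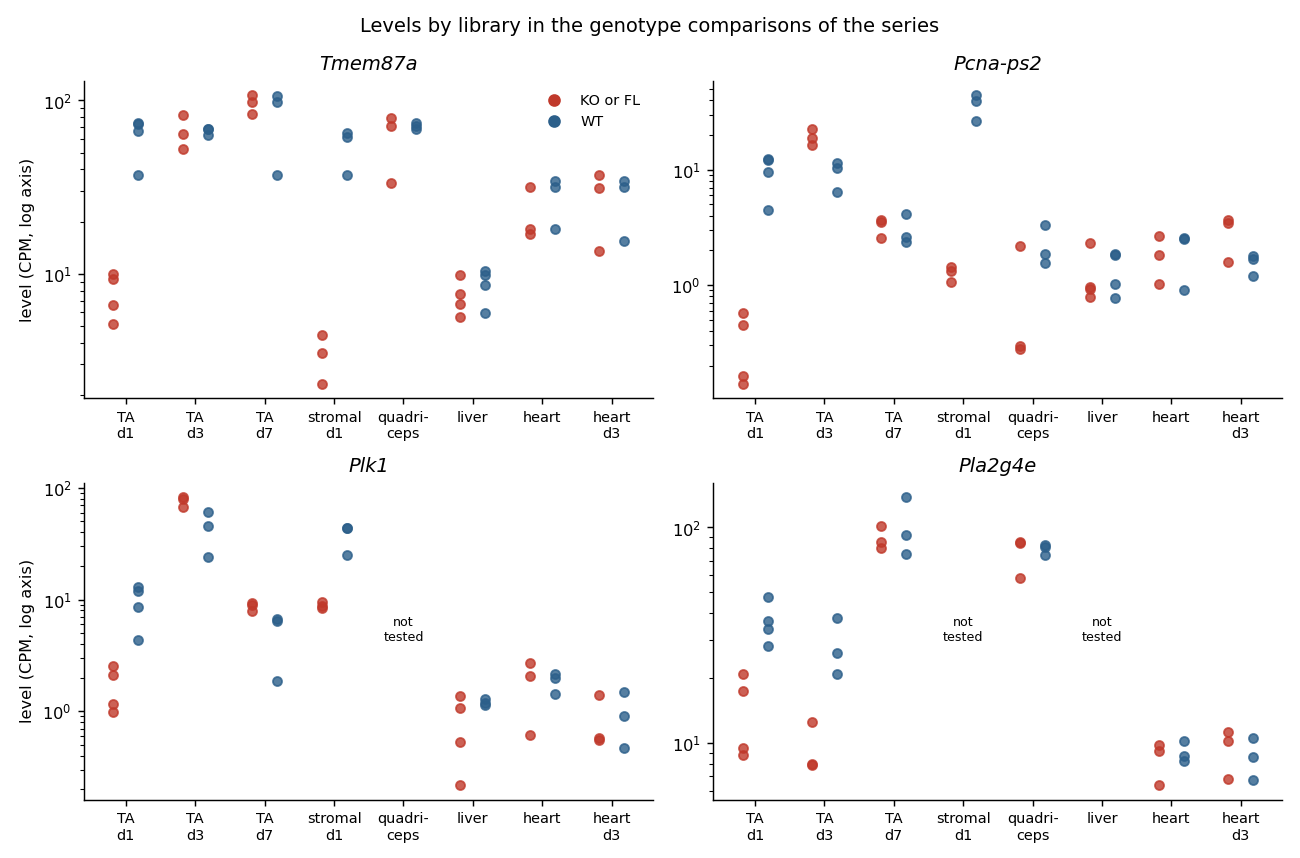
Level in CPM (log axis) of Tmem87a, Pcna-ps2, Plk1 and Pla2g4e in each library of the 8 genotype comparisons, KO or FL in red to the left and WT in blue to the right; genes with too few reads are marked as not tested, and a library at 0 (Plk1 in 1 WT liver) is not drawn. Red and blue points of Tmem87a part in TA at day 1 and in sorted stromal cells (MmSCs) at day 1 and overlap in the other 6 comparisons, and those of Pla2g4e part in TA at days 1 and 3.

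The rest of the injury response was described by 34 further lists, in none of which edgeR called a gene, while DESeq2 called 1 (Myod1) and edgeR with no filter on low counts called 9. Chemokines that draw neutrophils had a median of 0.39 on the log2 scale over 8 genes. Their summed level was 669, 453, 560.5 and 309.8 CPM in KO, against 312, 440.4, 404 and 416 CPM in WT, and the groups overlapped. Cxcl1 had 16.2, 8.48, 11.6 and 12.3 CPM in the 4 KO libraries, against 9.17, 7.44, 6.29 and 13.5 CPM in the 4 WT libraries (log2 0.42, adjusted p = 0.94). Ppbp and Pf4, which platelets also carry, had log2 0.78 and 0.38 (adjusted p = 0.89 and 0.92). Pf4 made up most of the summed level, averaging 299 CPM of 498 CPM in KO and 229 CPM of 393 CPM in WT. Chemokines for monocytes and eosinophils summed to 1719 to 3161 CPM in KO and 2197 to 2761 CPM in WT. Ccl2, the main monocyte attractant, had 652, 415, 594 and 349 CPM in the 4 KO libraries, against 513, 611, 509.8 and 520.4 CPM in the 4 WT libraries (log2 -0.10, adjusted p = 0.98). The fractalkine receptor Cx3cr1, carried by monocytes and macrophages, had 27.2, 16.5, 10.8 and 17.6 CPM in the 4 KO libraries, against 43.8, 31.1, 31.6 and 19.4 CPM in the 4 WT libraries (log2 -0.80, adjusted p = 0.63), and the eosinophil attractant Ccl24 had log2 0.83 (adjusted p = 0.74). Among homeostatic and interferon chemokines, with a median of 0.00, Cxcl10 had log2 -0.89 (adjusted p = 0.77).

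Cytokines of the IL-6 family had a median of -0.02 over 11 genes, and those of the IL-1 family 0.06 over 13. Il6 was scarce, at 1.82, 1.87, 0.751 and 0.987 CPM in the 4 KO libraries, against 0.978, 2.36, 1.18 and 1.91 CPM in the 4 WT libraries (log2 -0.24, adjusted p = 0.97). Il1b had 52.9, 32.9, 34.4 and 23.5 CPM in the 4 KO libraries, against 14.9, 28.0, 25.3 and 57.1 CPM in the 4 WT libraries (log2 0.20, adjusted p = 0.96). Clcf1, an IL-6 family ligand, had log2 -0.69 and the receptor gene Lifr 0.23 (adjusted p = 0.67 and 0.92). Il1r2, the decoy receptor, had log2 0.44 and the alarmin Hmgb1 0.16. In the TNF and NF-kB list, with a median of -0.09, the soluble pattern receptor Ptx3 had 6.44, 4.46, 8.71 and 4.77 CPM in the 4 KO libraries, against 10.1, 12.3, 9.83 and 13.5 CPM in the 4 WT libraries, without overlap and without a call (log2 -0.91, adjusted p = 0.51). Sele, the selectin that endothelium shows to leukocytes, had log2 0.98 (adjusted p = 0.89). All 25 interferon-stimulated genes had fold changes below 0, with a median of -0.40. Their summed level was 779, 625, 486 and 784 CPM in KO, against 934, 1350.2, 618 and 671 CPM in WT, with overlap and with WT library 2 the highest, and none of the 25 had groups without overlap. Oas2, an antiviral enzyme, had log2 -0.67 (adjusted p = 0.66) and Oasl1 -0.81 (adjusted p = 0.77). Complement genes had a median of -0.11, with C2 at -1.003 and C3ar1 at -0.33.

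Markers of the cells that enter muscle gave no call either. The neutrophil markers summed to 486 to 858 CPM in KO and 472 to 674 CPM in WT, with G0s2 at log2 -0.55 and Mmp8 at 0.37. Those of monocytes and macrophages summed to 4547 to 6407 CPM in KO and 5083 to 6879.7 CPM in WT, with Fcgr1 at -0.43 and Ly6c2 at -0.50. T, NK and B cell markers were scarce and summed to 55.1 to 86.2 CPM in KO and 56.0 to 84.6 CPM in WT, with a median of -0.71 over 11 genes, Gzmb at -2.47 and Igkc at -1.26. Dendritic, mast and eosinophil markers summed to 78.6, 73.1, 68.6 and 72.4 CPM in KO, against 87.0, 92.4, 84.3 and 87.3 CPM in WT, so the sums did not overlap. Of these, the mast cell protease Mcpt4 had 4.76, 4.89, 7.21 and 5.76 CPM in the 4 KO libraries, against 12.3, 9.81, 7.74 and 9.29 CPM in the 4 WT libraries (log2 -0.79, adjusted p = 0.67), and Xcr1, of cross-presenting dendritic cells, had log2 -0.94 (adjusted p = 0.91). In 2 of the 13 dendritic, mast and eosinophil markers tested, every KO library lay below every WT library, against 2.3% of all genes tested. Among all lists, only the sums of these markers, of collagens and of glucocorticoid and atrophy genes did not overlap. Red cell and platelet markers summed to 324 to 587 CPM in KO and 377 to 453 CPM in WT.

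**Figure D5:**
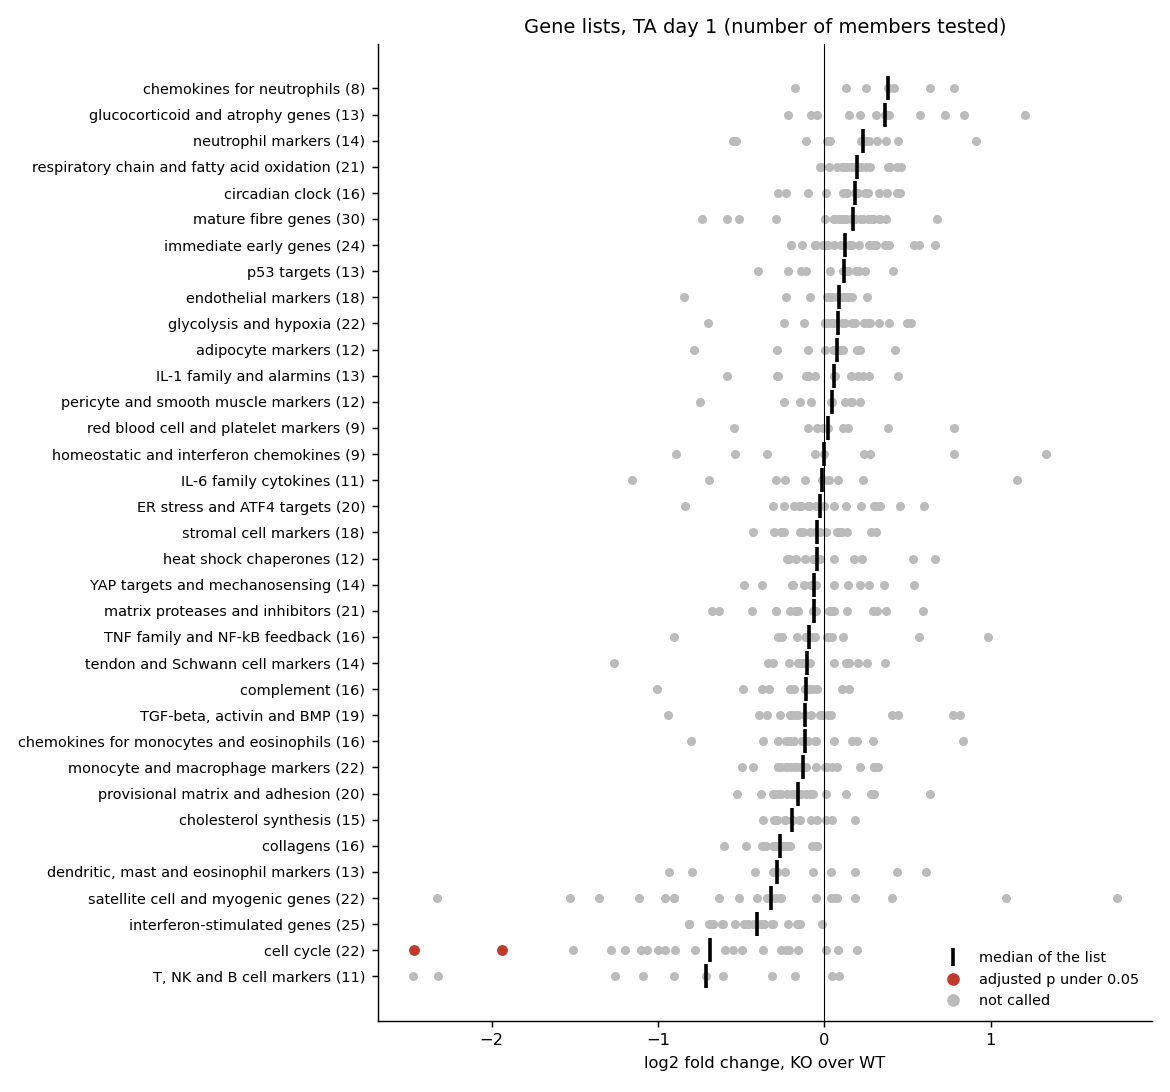
Log2 fold change (KO over WT, TA day 1) of each tested member of 35 gene lists, with the number tested in brackets, the list's median as a black bar and called genes in red. The 2 called points, Plk1 and Cdc20, stand in the cell cycle list, and the medians run from -0.71 for T, NK and B cell markers to 0.39 for neutrophil chemokines.

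Stromal cells, in which the Cre acts, showed marker levels that overlapped between the groups: 18 markers summed to 3132 to 3891 CPM in KO and 3205 to 3889.9 CPM in WT, with a median of -0.04. Pdgfra had 129, 121, 123 and 84.2 CPM in the 4 KO libraries, against 113, 96.5, 113 and 106 CPM in the 4 WT libraries (log2 0.10, adjusted p = 0.95). Gdf10 had log2 -0.43 and Ly6a, which encodes Sca1, -0.24 (adjusted p = 0.90 and 0.90). Collagens, the main fibrous product of these cells, had fold changes below 0 in 16 of 16 genes, with a median of -0.27 and no call. Their summed level was 5423, 6059, 6319 and 6092 CPM in KO, against 7932, 7631, 7057 and 7489 CPM in WT, and the sums did not overlap. In 6 of the 16, every KO library lay below every WT library, against 2.3% of all genes tested. Col1a2 had 1011, 1292, 1355 and 1253 CPM in the 4 KO libraries, against 1588, 1638, 1459 and 1572 CPM in the 4 WT libraries (log2 -0.35, adjusted p = 0.85). Col14a1, a fibril-associated collagen, had 23.1, 36.7, 33.9 and 40.8 CPM in the 4 KO libraries, against 63.1, 45.3, 49.2 and 46.2 CPM in the 4 WT libraries (log2 -0.60, adjusted p = 0.64), and KO library 1 was the lowest.

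In the provisional matrix list, with a median of -0.16, the adhesive glycoprotein Thbs1 had 437, 331, 326 and 366 CPM in the 4 KO libraries, against 161, 328, 231 and 222 CPM in the 4 WT libraries (log2 0.63, adjusted p = 0.65), and the collagen cross-linker Loxl2 had log2 -0.52 (adjusted p = 0.86). Among matrix proteases, with a median of -0.06, the membrane collagenase Mmp14 had 41.3, 24.2, 34.5 and 23.7 CPM in the 4 KO libraries, against 44.0, 54.7, 46.4 and 52.7 CPM in the 4 WT libraries, without overlap (log2 -0.68, adjusted p = 0.21). Ctsk, a collagen-cleaving cathepsin, also did not overlap and had log2 -0.44 (adjusted p = 0.81). TGF-beta, activin and BMP genes had a median of -0.12, and Fst, the activin and myostatin antagonist follistatin, had 2.66, 4.89, 5.25 and 4.93 CPM in the 4 KO libraries, against 9.17, 8.74, 6.16 and 9.97 CPM in the 4 WT libraries (log2 -0.94, adjusted p = 0.50). Tgfb2 had log2 0.44 (adjusted p = 0.86). Every KO library lay below every WT library in 4 of 19 TGF-beta, activin and BMP genes and in 3 of 20 provisional matrix genes. In neither list did a gene have every KO library above every WT library. Over all genes tested these shares were 2.3% below and 1.83% above. For YAP targets and mechanosensing genes the median was -0.06. Wwtr1, which encodes TAZ, a paralogue of YAP, had 42.9, 44.3, 38.1 and 41.9 CPM in the 4 KO libraries, against 57.8, 63.0, 61.4 and 51.9 CPM in the 4 WT libraries, without overlap (log2 -0.49, adjusted p = 0.46), whereas the muscle YAP target Ankrd1 had log2 0.54 (adjusted p = 0.67).

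In the muscle lineage, 22 satellite cell and myogenic genes had a median of -0.32 and no call, and members stood on both sides of 0. Myod1, the transcription factor of activated satellite cells, had 112, 108, 97.3 and 111 CPM in the 4 KO libraries, against 184, 183, 146 and 151 CPM in the 4 WT libraries, without overlap (log2 -0.63, adjusted p = 0.16). DESeq2, the fit without a filter and the fit on the 8 day 1 libraries alone called it lower. Pax7, the factor that marks satellite cells at rest, was scarce and had 0.980, 1.29, 1.201 and 2.80 CPM in the 4 KO libraries, against 0.244, 0.354, 0.525 and 0.683 CPM in the 4 WT libraries, again without overlap (log2 1.76, adjusted p = 0.24). The imprinted RNA H19 had 66.7, 73.5, 118 and 141 CPM in the 4 KO libraries, against 262, 143, 149.6 and 191 CPM in the 4 WT libraries, also without overlap (log2 -0.90, adjusted p = 0.45). Myog, which acts later in differentiation, had 27.2, 34.9, 30.8 and 47.4 CPM in the 4 KO libraries, against 99.9, 93.3, 39.2 and 39.1 CPM in the 4 WT libraries (log2 -0.96, adjusted p = 0.52), with 2 WT libraries high and the other two in the KO range. Mature fibre genes had a median of 0.17, with slow troponin Tnnt1 at -0.73 and Myl3 at 0.68. The glucocorticoid and atrophy list had a median of 0.36. Its summed level was 2245, 2267, 2074 and 2386 CPM in KO, against 1564, 1598, 1844 and 1924 CPM in WT, without overlap of the sums. The list had 2 of 13 members tested with every KO library above every WT library (1.83% of all genes tested). Its ubiquitin ligase Fbxo32, also named atrogin-1, had 191, 324, 187 and 303 CPM in the 4 KO libraries, against 127, 99.1, 169 and 168 CPM in the 4 WT libraries (log2 0.84, adjusted p = 0.57), and the glucocorticoid-induced factor Klf15 had 2.24, 6.47, 11.9 and 14.3 CPM in the 4 KO libraries, against 3.42, 3.43, 4.59 and 3.55 CPM in the 4 WT libraries (log2 1.21, adjusted p = 0.60).

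Metabolic and stress lists lay near 0. Glycolysis and hypoxia genes had a median of 0.08, with hexokinase Hk2 at 0.50 (adjusted p = 0.64). Respiratory chain and fatty acid oxidation genes had 0.20, with 19 of 21 above 0 and Ndufs1, of complex I, at 0.38. The circadian list had 0.19, with Nr1d1 at 0.45 (adjusted p = 0.69), and cholesterol synthesis -0.19. Immediate early genes had 0.12, with Nr4a1 at 121, 123, 136 and 113 CPM in the 4 KO libraries, against 59.9, 54.2, 104 and 114 CPM in the 4 WT libraries (log2 0.57, adjusted p = 0.72). ER stress and ATF4 targets had -0.03, and Phgdh, the entry enzyme of serine synthesis, had 12.9, 8.77, 8.41 and 7.89 CPM in the 4 KO libraries, against 13.8, 17.8, 18.9 and 17.5 CPM in the 4 WT libraries, without overlap (log2 -0.84, adjusted p = 0.31). Among heat shock chaperones, with a median of -0.05, the small chaperone Hspb1 had 510.2, 593, 962 and 562 CPM in the 4 KO libraries, against 346, 411, 491 and 411 CPM in the 4 WT libraries, without overlap (log2 0.66, adjusted p = 0.65). The p53 targets had 0.12, and the endothelial, pericyte and smooth muscle, tendon and Schwann cell, and adipocyte marker lists had 0.09, 0.05, -0.10 and 0.07. In data simulated from these libraries, 63% of genes changed by 1 and 96% of genes changed by 2 on the log2 scale were recovered. The changed genes averaged at least 2 CPM over the TA libraries, so these shares do not cover scarcer genes. Each gene was simulated on its own, without differences shared by many genes of 1 library. The 200 changed genes gave 164 calls, against 12 in the real data, so the cutoff on the unadjusted p was looser. These shares can thus be higher than for the real libraries. Differences of these sizes, and smaller ones, could be missed.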

How the data were processed

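Whole-tissue RNA-seq of TA muscle was described by the raw counts per gene that the authors deposited as 1 table of 90 libraries and 55011 gene symbols. Per the submitters' processing notes, the authors used STAR 2.7.3a, featureCounts and the mm10 build; no source used here states the strand setting or annotation. Symbols were placed with GENCODE M21 and, where it lacked one, RefSeq GRCm38.p6, which gave a position to 98.0% of symbols. The 20 TA libraries were fitted together with edgeR 4.0.16 (R 4.3.3): filterByExpr with a minimum count of 10 left 15499 genes, followed by TMM scaling, the robust quasi-likelihood test and Benjamini-Hochberg adjustment over all genes. MmSC, quadriceps, liver and heart libraries were fitted by tissue in the same way. Levels are TMM-scaled CPM, and list sums add them over tested members. The fit was tested on simulated data with 200 changed genes among 15175, where 5 of 164 calls were false.

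Depth was 6513479 to 7754027 counts per library at day 1; intervals and limits for counts of 0 cover counting error only. No replicate pair agreed within sampling noise (smallest chi-square per gene 6.52), so all 8 libraries were kept. Alternatives were RLE size factors, DESeq2 1.42.0, no filter on low counts, the replicate number as a block, Y-linked expression as a covariate, the 8 day 1 libraries alone, chromosome 2 set aside, and each library left out. Genes were named by rule: Piezo1; in each direction, the called genes of largest fold change (15 at most) whose groups did not overlap and whose higher group averaged 10 CPM or more, predicted genes and pseudogenes left out; up to 4 called genes of each list, or up to 2 with the smallest p; called genes of a chromosome holding at least 10% of calls and over 2 times its share of genes; and the 6 largest differences between days. The comparison, lists and rule were chosen with earlier results of these data known. Further genes are named where the text says so or to show a list's best-known members. The 36 lists hold 595 symbols, 1 of the lists being sex-linked genes. Python 3.11.15 and matplotlib 3.10.9 drew the figures.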

Additional observations from a re-analysis of the deposited data

Results flagged for a closer look

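In a group of 4, a library was marked when its gap to the nearest other exceeded the 95% critical value of Dixon's ratio. Chance reaches this value in about 1 of 20 groups. Many genes and list sums were screened, so some of these marks are expected by chance. KO library 1 was marked for Ctsk (21.8 CPM, the others 17.3 to 17.98), Fst (2.66 CPM, the others 4.89 to 5.25), Eif2s3y (56.3 CPM, the others 70.3 to 72.8), the summed TNF and NF-kB genes (892 CPM, the others 728 to 753) and the summed TGF-beta, activin and BMP genes (715 CPM, the others 663 to 672). KO library 3 was marked for Bhlhe41 (39.9 CPM, the others 24.3 to 26.1). WT library 2 was marked for Cnn1 (3.07 CPM, the others 1.23 to 1.47) and the summed ER stress genes (5091 CPM, the others 3676 to 3807), and WT library 3 for Klf15 (4.59 CPM, the others 3.42 to 3.55).

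The KO effect at day 1 minus that at day 3 passed the test for 906 genes. The 12 genes lower at day 1 were chosen by a difference that this test contains. Among the 12 genes lower at day 1 it was -6.01 for Hist1h2al, -5.81 for Pcna-ps2, -5.41 for Slc28a2b, -4.47 for Cldn2, -3.29 for Plk1 and -3.01 for Tmem87a (log2). It was -2.66 for Cdc20, -2.55 for Knl1, -1.90 for Depdc7, -1.76 for Psmc3ip and -1.51 for Gatm. Against day 7 it passed for 6 genes, at -6.72 for Hist1h2al, -6.63 for Cldn2, -5.43 for Slc28a2b, -4.87 for Pcna-ps2, -3.27 for Tmem87a and -3.24 for Plk1. The values of Hist1h2al and Cldn2, with no KO read at day 1, and of Slc28a2b, with 3, depend on the prior count of the fit and are no bounds.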

How the results depend on the processing

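The day 1 count of 12 became 92 with no filter on low counts (22 higher, 70 lower), 42 in DESeq2 (11 higher, 31 lower), and the cause was not tested. Setting chromosome 2 aside left 6, which by construction only takes its 6 calls away. The 12 were among the calls without a filter and in DESeq2. Leaving out 1 library gave 5 to 18 calls, with fewer libraries in the fit. It was 12 with RLE size factors, 10 with Y-linked expression as a covariate and 15 on the 8 day 1 libraries alone. The covariate ended the calls of Depdc7, Gatm and Psmc3ip and added Inafm2 as higher (adjusted p = 0.027). The 8 libraries alone ended that of Knl1 and did not test Cldn2. The difference between days 1 and 3 was called for 473 genes with the Y-linked covariate and for 568 to 1158 with 1 library left out. That between days 1 and 7 was called for 72 genes with no filter, 16 in DESeq2 and 5 to 9 with 1 library left out. DESeq2 called 366 genes in MmSCs, 21 in liver, 9 in uninjured heart and 1736 in heart at day 3. Piezo1 stayed uncalled in 14 of 14 settings, at -0.26 to -0.08.

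Same-numbered KO and WT libraries correlated at 0.023, 0.0080, 0.028 and 0.041 in their deviations from the group means. In so few libraries these values do not show whether those with the same number share a litter or handling. With that number as a replicate block, 21 genes were called at day 1 (3 higher, 18 lower; 5 of the cell cycle list, all lower, and Inafm2 and Eif3j1, higher) and 11 for the difference between days 1 and 7. Depth limits the genes with few reads, such as Hist1h2al and Cldn2.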
